A study of Mus musculus with 12 samples.

Results

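The 10 genes described here, Twist1, Tcf12, Msx2, Alx4, Zic1, Erf, Efnb1, Efna4, Rab23 and Il11ra1, are mouse orthologues of genes mutated in human craniosynostosis, the early fusion of skull sutures. The FGF receptor genes were left out of the set. The members were picked by symbol from a table of 23358 genes, each matched 1 row, and all 10 were among the 16190 genes that passed the filter on low counts. RNA came from frontal bones of mice at postnatal day 3, and the dissected piece also held the nasal bone with the frontonasal and coronal sutures. The 12 samples formed 4 groups of 3. Wild type C57BL/6, C57BL/6 carrying FGFR2C342Y/+, wild type BALB/c and BALB/c carrying FGFR2C342Y/+ were compared. The FGFR2C342Y/+ mice carry 1 mutant and 1 normal copy of the receptor gene throughout the body and model Crouzon syndrome, and no group carried another engineered allele per the labels. The labels do not give the sex of the mice or say whether tissue was pooled, so p-values measure only the spread between these samples.

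Flat skull bones grow at the sutures, where undifferentiated mesenchyme between the bone fronts is held back from becoming osteoblasts. Twist1 and Tcf12 are basic helix-loop-helix transcription factors that pair with each other and restrain osteoblast differentiation, and loss of either causes coronal synostosis in people. Msx2 and Alx4 are homeobox factors of the skull mesenchyme, Zic1 is a zinc finger factor, and Erf is an ETS repressor that is exported from the nucleus when ERK, the kinase downstream of FGF receptors, is active. Efnb1 and Efna4 are ephrins, cell surface ligands that keep cell populations apart at the coronal boundary. Rab23 is a small GTPase that dampens Hedgehog signalling, and Il11ra1 is the receptor chain that binds interleukin 11 and signals through gp130.

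Library totals ran from 27.2 M to 46.5 M counts, and every deposited count was even. The mutated gene Fgfr2 was detected at 212 to 375 CPM (counts scaled to a common library size, with TMM factors) in all 12 samples, which does not test the mutation itself. The 8 osteoblast markers summed to between 66600 and 153000 CPM, so the bone label was borne out in each library. They summed to 128000 to 153000 CPM in C57BL/6 mutants and 66600 to 115000 CPM in C57BL/6 wild type. C57BL/6 wild type replicate 1 had the lowest of these sums, against 114000 and 115000 in its group mates. It stood apart from them over all genes too, with a chi-square per gene (on halved counts) of 34.4 and 38 against 6.01 between the other 2. Markers of ciliated and other nasal epithelium (7 of 8 in the table) summed to 313 to 655 CPM in C57BL/6 wild type, to 141 CPM in C57BL/6 mutant replicate 4 and to 4.39 to 6.74 CPM in the other 8 samples. Bpifa1 and Sec14l3 of that list had 0 counts in BALB/c wild type. Erythroid markers (6) summed to 194 to 260 CPM in C57BL/6 wild type, 51.5 to 80.3 in C57BL/6 mutants, 215 to 326 in BALB/c wild type and 419 to 513 in BALB/c mutants. Macrophage and osteoclast markers (5) summed to 7550 to 8420 CPM in C57BL/6 mutants and to 3610 to 5180 CPM in the other samples. Y-linked transcripts (4) were high, at 145 to 185 CPM, in all 3 C57BL/6 wild type samples and in 1 sample of each other group. The part of these differences in the results was not tested. In bulk tissue, fewer cells of a type and less RNA per cell cannot be told apart. The descriptions give each strain its own run identifier, so strain and run cannot be told apart either.

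**Figure D1:**
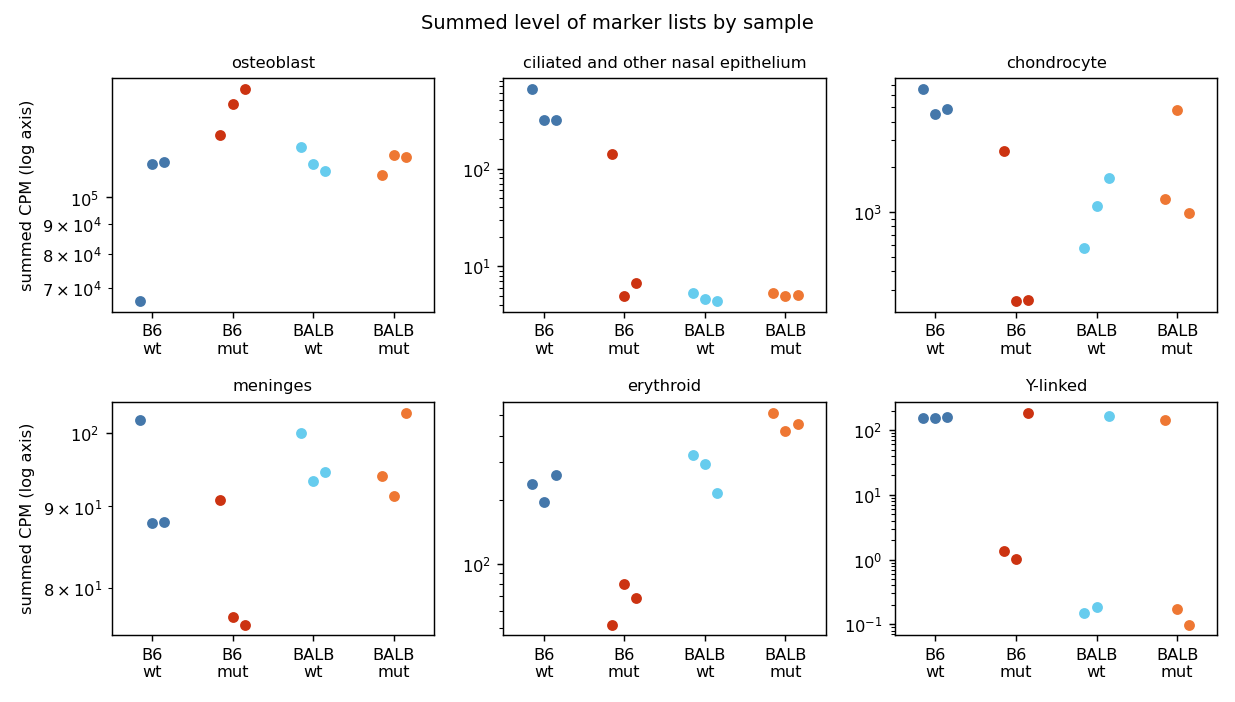
Summed CPM (log axis) of 6 marker lists in each of the 12 samples, by group (B6, C57BL/6; BALB, BALB/c; wt, wild type; mut, FGFR2C342Y/+). Nasal epithelium markers reached 313 to 655 CPM in C57BL/6 wild type and 141 CPM in 1 C57BL/6 mutant sample, and were near 5 CPM elsewhere.

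The members spanned a wide range of levels. Per kilobase of the deposited coding length, Twist1 was the most abundant at 56.9 CPM per kb ± 11.4 (SD, n = 12), followed by Erf at 38.1 ± 7.15, Efnb1 at 31.1 ± 4.70, Tcf12 at 23.9 ± 5.06 and Alx4 at 22.7 ± 2.15. Il11ra1 averaged 14.8 ± 7.77 and Zic1 6.16 ± 2.77 CPM per kb. Efna4 (4.35 ± 0.763), Rab23 (4.30 ± 0.623) and Msx2 (3.66 ± 1.31) were the lowest on this scale. Tcf12 and Alx4 lay within 1 SD of each other, and so did Efna4, Rab23 and Msx2. The ratio of the highest to the lowest sample was 4.95 for Zic1, 4.77 for Msx2 and 4.41 for Il11ra1, against 1.43 for Alx4 and 1.67 for Rab23. Counts behind these levels ran from 104 for Msx2 to 7776 for Erf in single libraries.

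**Figure D2:**
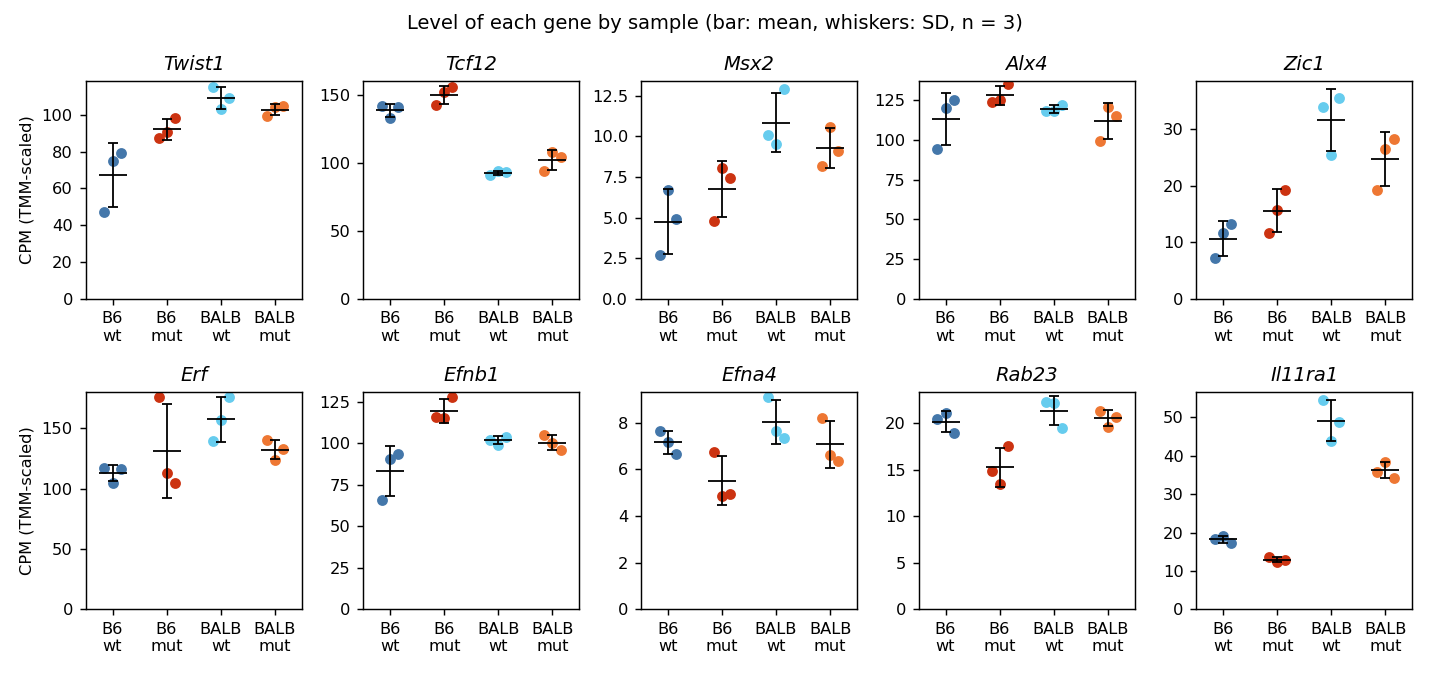
CPM of each gene in each sample (linear axes from 0; points, samples; bar and whiskers, mean and SD of 3). Il11ra1 and Tcf12 separated the strains completely, at 12.4 to 19.1 against 34.3 to 54.5 CPM and at 133 to 156 against 91.0 to 108 CPM. Twist1 (98.4 against 99.3 CPM at the nearest samples) and Msx2 (8.05 against 8.15) were separate too, by less, and Zic1 met at 19.3 CPM after rounding.

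Within C57BL/6, 4 of the 10 members differed between mutant and wild type. Twist1 and Efnb1 rose in the mutants, and Rab23 and Il11ra1 fell. By edgeR's quasi-likelihood test at a Benjamini-Hochberg adjusted p under 0.05, 23.9% of all genes tested were called in this comparison, 11.3% higher and 12.6% lower in mutants, so the members' count is not read as particular to them. Of the 8 osteoblast markers 5 rose in the same comparison, with a list median log2 value of 0.60, and their part in the Twist1 and Efnb1 differences was not tested. The median log2 fold change of the members was 0.20, against -0.004 over all genes. A fit of the 6 C57BL/6 samples alone called only Il11ra1 of the members, and called 1458 of all genes against 3867. Without mutant replicate 6 the count over all genes was 1724.

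Twist1 (chr12:33957671-33959831, mm10) had 47.3, 74.9 and 79.5 CPM in C57BL/6 wild type and 87.3, 90.6 and 98.4 CPM in C57BL/6 mutants. The groups did not overlap, and wild type replicate 1 lay well below its group mates. The log2 difference was 0.45 (SE 0.145, adjusted p 0.0405, edgeR). Without wild type replicate 1 it was 0.28 (adjusted p 0.0241), and without mutant replicate 5 or 6 the adjusted p was 0.0821 or 0.127. It was 0.155 in the fit of the C57BL/6 samples alone, 0.0755 with the Y-linked level as a covariate, and 0.0719 with scaling by total counts (log2 0.28). In BALB/c the genotypes overlapped, with Twist1 at 115, 103 and 109 CPM in wild type and 99.3, 104 and 105 CPM in mutants (log2 -0.09, SE 0.144, adjusted p 0.877, edgeR).

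Efnb1, the ephrin gene of craniofrontonasal syndrome, is X-linked (chrX:99136130-99148991). Its level was 66, 90.3 and 93.7 CPM in C57BL/6 wild type and 116, 115 and 128 CPM in C57BL/6 mutants. Every mutant lay above every wild type sample, with a log2 increase of 0.52 (SE 0.106, adjusted p 0.00601, edgeR). The call held in the 6 fits that left out 1 replicate (adjusted p 0.00270 to 0.0300) and was lost in the fit of the C57BL/6 samples alone (adjusted p 0.0641). Y-linked transcripts were high in every C57BL/6 wild type sample but, among the mutants, only in replicate 6 (185 CPM), which had the highest Efnb1 level. The part of sex in the Efnb1 difference was not tested. In BALB/c the gene held 102, 99.2 and 104 CPM in wild type and 105, 100 and 96.1 CPM in mutants, and these ranges overlapped (log2 -0.02, SE 0.105, adjusted p 0.980).

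Efna4 (chr3:89333393-89338028), the GPI-anchored ephrin, ran from 6.65 to 7.64 CPM in C57BL/6 wild type and from 4.85 to 6.73 CPM in the mutants. The log2 value of -0.37 (SE 0.159, adjusted p 0.104, edgeR) did not pass. Mutant replicate 4, the library with nasal epithelium markers, was the highest mutant sample, and without it the value was -0.55 (adjusted p 0.0206). With scaling by total counts it was -0.57 (adjusted p 0.0415). The gene shares 168 exon bases with the antisense transcript 4731419I09Rik in GENCODE M21, and the strand setting of the counting is not given in the sources used here.

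Rab23 (chr1:33719896-33742564) fell in C57BL/6 mutants, from 20.4, 21.1 and 18.9 CPM to 14.8, 13.4 and 17.5 CPM. The groups were separate, with a log2 difference of -0.41 (SE 0.0964, adjusted p 0.0123, edgeR). In BALB/c the 6 samples ran from 19.5 to 22.3 CPM regardless of genotype (log2 -0.06, SE 0.0960, adjusted p 0.888), and these levels were close to those of C57BL/6 wild type. The fit of the C57BL/6 samples alone gave an adjusted p of 0.0713.

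Il11ra1 (chr4:41760443-41769473) fell in C57BL/6 mutants and had a like value in BALB/c, where it missed the threshold with edgeR. In C57BL/6 it had 18.2, 19.1 and 17.3 CPM in wild type and 13.6, 12.4 and 12.8 CPM in mutants, a log2 difference of -0.50 (SE 0.0833, adjusted p 0.00231, edgeR). In BALB/c it had 54.5, 43.9 and 48.7 CPM in wild type and 35.8, 38.4 and 34.3 CPM in mutants. Within each strain the genotypes were fully separate. The BALB/c value of -0.44 (SE 0.0799) had an unadjusted p of 0.000144 and an adjusted p of 0.0664 with edgeR. The same contrast passed in 2 of 8 other settings, DESeq2 (adjusted p 0.000775) and limma-voom (0.0497), and the adjusted p reached 0.144 among the 8. Of 6 fits that left out 1 replicate it passed in 1, without wild type replicate 14 (0.0323, log2 -0.51), and the adjusted p reached 0.283. In the authors' deposited table the same gene had a log2 fold change of -0.36 and a q-value of 0.0137 in BALB/c, and -0.45 with a q-value of 3.26e-05 in C57BL/6. The difference between the strains' genotype effects was 0.06 on the log2 scale (SE 0.115, adjusted p 0.772).

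Tcf12 (chr9:71844252-72111819) had log2 values above 0 in both strains that did not pass the adjusted threshold. It held 142, 133 and 141 CPM in C57BL/6 wild type and 143, 152 and 156 CPM in C57BL/6 mutants (log2 0.12, SE 0.0602, adjusted p 0.172, edgeR). In BALB/c it held 91.0, 94.1 and 93.2 CPM in wild type and 94.1, 108 and 104 CPM in mutants (log2 0.14, SE 0.0605, adjusted p 0.404). With scaling by total counts, which moved the median of all genes to -0.201, the C57BL/6 value turned to -0.08. Alx4 (chr2:93642434-93681339) had log2 values of 0.17 (SE 0.0999, adjusted p 0.216) in C57BL/6 and -0.10 (SE 0.1, adjusted p 0.776) in BALB/c. Fits without 1 replicate gave 0.079 to 0.254 in C57BL/6, with the lowest value without wild type replicate 1. Alx4 overlaps Ext2 on the opposite strand in GENCODE M21, with 0 shared exon bases.

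Erf (chr7:25242560-25250758) ran from 105 to 117 CPM in C57BL/6 wild type, and the mutants held 176, 113 and 105 CPM. The high sample was replicate 4, and the log2 value of 0.22 (SE 0.159, adjusted p 0.323) became -0.04 without it. Msx2 (chr13:53466881-53472780) and Zic1 (chr9:91360345-91365799) had log2 values of 0.51 (SE 0.285, adjusted p 0.207) and 0.55 (SE 0.240, adjusted p 0.112), with groups that overlapped. Without mutant replicate 4 the Zic1 value was 0.72 (adjusted p 0.0330). Without wild type replicate 1 or 2 the Msx2 value was 0.25 or 0.84 (adjusted p 0.499 and 0.0573), and without wild type replicate 1 the Zic1 value was 0.35 (adjusted p 0.311). In BALB/c all 3 genes had negative values, of -0.25 for Erf, -0.22 for Msx2 and -0.35 for Zic1 (adjusted p 0.603, 0.826 and 0.616).

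In BALB/c, edgeR called 0 of the 10 members by genotype, where 0.136% of all genes were called, 0.0926% higher and 0.0432% lower in mutants. Of the 10, 2 had an unadjusted p under 0.05, Tcf12 and Il11ra1, and both DESeq2 and limma-voom called 1, Il11ra1. Over all genes the edgeR count of 22 became 95 without wild type replicate 14 and 0 without replicate 13 or 15. Without 1 mutant replicate it was 2 to 6.

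**Figure D3:**
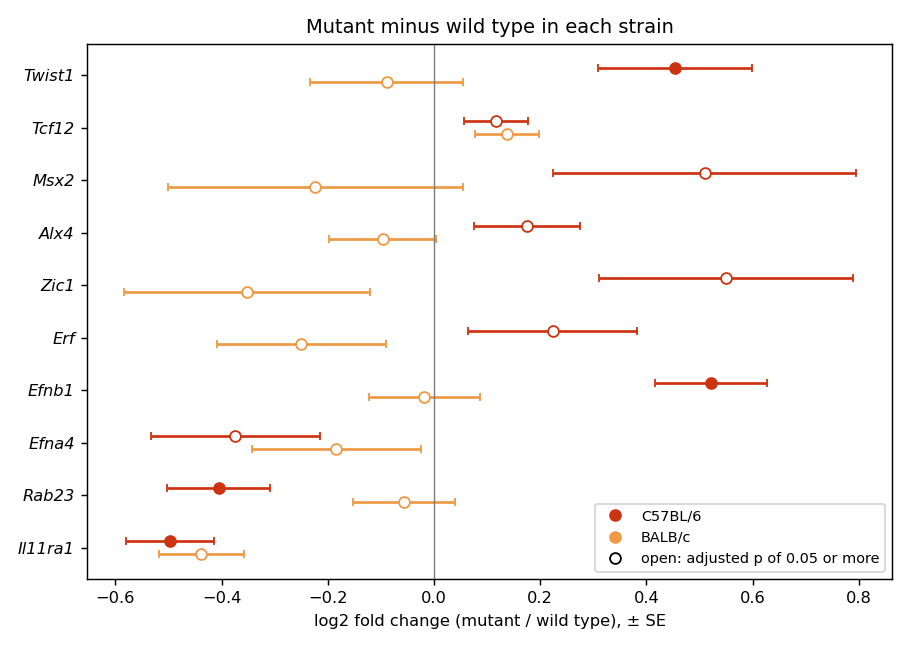
Log2 fold change of mutant over wild type in each strain, with SE, from the fit of all 12 samples (filled, adjusted p under 0.05). Il11ra1 lies at -0.50 in C57BL/6 and -0.44 in BALB/c, where it did not pass. Twist1, Efnb1 and Rab23 lie at 0.45, 0.52 and -0.41 in C57BL/6 and at -0.09, -0.02 and -0.06 in BALB/c, and only for Efnb1 did the difference between strains pass.

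The interaction test asks whether the genotype effect differs between strains. Efnb1 was the only member called, with an effect in BALB/c more negative (log2 difference -0.54, SE 0.149, adjusted p 0.0426, edgeR), where 10% of all genes were called, 5.46% with the BALB/c effect above and 4.58% with it below the C57BL/6 effect. This call did not hold without C57BL/6 mutant replicate 5 (adjusted p 0.0672) or 6 (0.104), or without any one of the 6 BALB/c samples (0.0708 to 0.0875). It was also lost with scaling by total counts (log2 -0.32, adjusted p 0.0725) and with no filter on low counts (0.0519). Twist1 (-0.54, SE 0.204, adjusted p 0.104), Zic1 (-0.90, SE 0.334, adjusted p 0.1) and Rab23 (0.35, SE 0.136, adjusted p 0.114) did not pass with edgeR. DESeq2 called Twist1 (adjusted p 0.0450) and Zic1 (0.0372) beside Efnb1. With scaling by total counts, which moved the median interaction value of all genes to 0.238, Rab23 passed (log2 0.58, adjusted p 0.0356).

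Between the strains, 7 of 10 members differed in wild type mice, 6 of them higher in BALB/c, where 48.5% of all genes tested were called, 22.8% higher and 25.6% lower in BALB/c. Zic1, Il11ra1, Msx2, Twist1, Erf and Efnb1 were higher in BALB/c and Tcf12 was lower. In mutants 4 of 10 differed, where 36.9% of all genes were called, 18% higher and 18.9% lower in BALB/c. Zic1, Il11ra1 and Rab23 were higher in BALB/c mutants and Tcf12 was again lower. The median log2 value of the members was 0.38 in wild type and 0.26 in mutants, against -0.001 and -0.004 over all genes.

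Il11ra1 had the smallest p of the members, with BALB/c minus C57BL/6 differences of 1.43 (SE 0.0823, adjusted p 4.46e-07, edgeR) in wild type and 1.49 (SE 0.0830, adjusted p 2.34e-07) in mutants, or 2.69-fold and 2.80-fold. The lowest BALB/c sample, at 34.3 CPM, lay above the highest C57BL/6 sample, at 19.1 CPM. DESeq2 on the deposited counts gave 1.42 and 1.48. The authors' deposited table, which gives C57BL/6 over BALB/c, lists smaller log2 values for this gene, -0.76 in wild type and -0.85 in mutants, against 1.43 and 1.49 here. Its values for some other members also differed in size, with Zic1 in wild type at -1.24 against 1.57 here, Msx2 in wild type at -0.998 against 1.19, and Erf in mutants at -0.25 against 0.01. Twist1 in wild type was at -0.68 against 0.70. The cause of these gaps was not tested.

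The Il11ra1 counts are uncertain, because the reference genome holds near-identical copies of the gene. Of the 50-base words in its longest transcript, 46.5% also occur in the copy Gm13305 and 37.8% in Il11ra2, while the other 9 members shared at most 0.582% of theirs with any other genes. Il11ra2 and Gm13305 had 0 counts in all 12 libraries. The longest reading frames of Il11ra1 and Il11ra2 are both 1299 bases long and are identical at 1286 of them. The stretch of 60 bases with the most mismatches, from base 1030 to base 1089 of the reading frame, is shown to let the near-identity be seen, with the 3 differing bases in capitals.
Il11ra1: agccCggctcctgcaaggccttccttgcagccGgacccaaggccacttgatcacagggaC
Il11ra2: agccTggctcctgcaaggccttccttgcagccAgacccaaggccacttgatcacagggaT
How reads that match more than 1 copy were treated is not given in the sources used here, and its part in the strain difference was not tested. Il11ra1 also shares 8 exon bases with the antisense gene Ccl27a, which had 2 to 54 counts per library against 474 to 1786 for Il11ra1.

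Twist1, Msx2 and Zic1 had the same order of group means, lowest in C57BL/6 wild type, then C57BL/6 mutant, BALB/c mutant and BALB/c wild type. Zic1 had 7.17, 11.6 and 13.2 CPM in C57BL/6 wild type, 11.7, 15.8 and 19.3 in C57BL/6 mutants, 19.3, 26.6 and 28.3 in BALB/c mutants, and 34.0, 25.4 and 35.5 in BALB/c wild type. Msx2 had 2.70, 6.68 and 4.88 CPM, then 4.79, 8.05 and 7.44, then 8.15, 10.6 and 9.10, and 10.1, 9.51 and 12.9 CPM in the same order of groups. For all 3 genes the strains were separate in wild type and, by a narrow margin, in mutants. C57BL/6 wild type replicate 1 was the lowest of the 12 samples for each.

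In wild type the BALB/c excess was 1.57 on the log2 scale for Zic1 (SE 0.242, adjusted p 0.000347, edgeR), 1.19 for Msx2 (SE 0.286, adjusted p 0.00502) and 0.70 for Twist1 (SE 0.145, adjusted p 0.00220). The 3 calls held in each of the 6 fits that left out 1 replicate. Without C57BL/6 wild type replicate 1 the values were 1.36, 0.91 and 0.51. In mutants the values were 0.67 for Zic1 (SE 0.235, adjusted p 0.0415), 0.46 for Msx2 (SE 0.280, adjusted p 0.219) and 0.16 for Twist1 (SE 0.144, adjusted p 0.422). The Zic1 call in mutants was lost without C57BL/6 replicate 4 (0.50, adjusted p 0.111) or 5 (0.69, 0.0791) and without BALB/c replicate 17 (0.62, 0.108) or 18 (0.56, 0.129). Meningeal markers, of a tissue in which Zic1 is also expressed, did not move as one between the wild type strains. Of 4 tested, Foxc1 was higher and Aldh1a2 and Crabp2 were lower in BALB/c, with a median log2 value of -0.75, and their part in the Zic1 difference was not tested. Of 7 suture and skeletal mesenchyme markers, Prrx1, Prrx2, Six2 and Fap were higher and Postn was lower in BALB/c wild type, with a list median of 0.235, and 4 of the 8 osteoblast markers were higher and 0 lower, with a median of 0.465. Their part in the Zic1, Msx2 and Twist1 differences was not tested.

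Zic1 shares 60 exon bases with the oppositely oriented Zic4, and the 2 genes could share counts if strand was not used. Zic4 was also higher in BALB/c wild type, where it averaged 4.98 ± 1.23 CPM against 1.25 ± 0.188 CPM (SD, n = 3; log2 1.99, SE 0.335, adjusted p 0.000639, edgeR). Its counts were lower than those of Zic1 in every group mean.

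Tcf12 was lower in BALB/c in wild type (log2 -0.58, SE 0.0606, adjusted p 2.86e-05, edgeR) and by a like amount in mutants (log2 -0.56, SE 0.0604, adjusted p 3.56e-05). The highest BALB/c sample held 108 CPM and the lowest C57BL/6 sample 133 CPM. With Twist1 higher and Tcf12 lower in BALB/c wild type, the Twist1 to Tcf12 ratio per kilobase, which does not depend on library scaling, averaged 3.66 there, with an SD of 0.255, and 1.51, with an SD of 0.412, in the C57BL/6 controls (n = 3 each). It was 1.90 ± 0.0583 in C57BL/6 mutants and 3.13 ± 0.141 in BALB/c mutants. Every C57BL/6 sample, at 1.04 to 1.96, lay below every BALB/c sample, at 3.00 to 3.92. Replicate 1 of C57BL/6 wild type, at 1.04, stood below its group mates, which were both at 1.75.

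**Figure D4:**
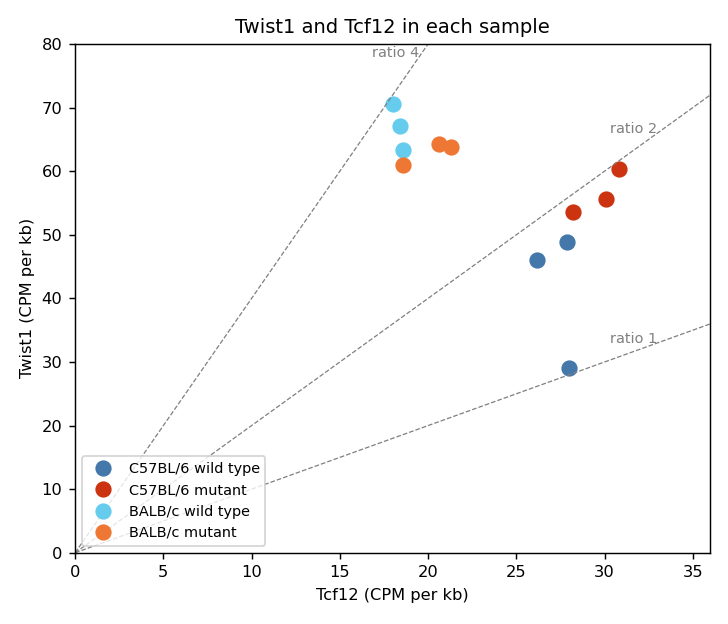
Twist1 against Tcf12 in each sample, both in CPM per kb on linear axes, with dashed lines at ratios of 1, 2 and 4. The 6 BALB/c samples lie at ratios of 3.00 to 3.92 and the 6 C57BL/6 samples at 1.04 to 1.96.

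Rab23 was higher in BALB/c mutants than in C57BL/6 mutants (log2 0.43, SE 0.0962, adjusted p 0.00456, edgeR) and not past the threshold in wild type (log2 0.08, SE 0.0962, adjusted p 0.521). Erf was higher in BALB/c wild type, at 139, 157 and 176 CPM against 117, 105 and 116 CPM (log2 0.48, SE 0.159, adjusted p 0.0254). That call was lost without C57BL/6 wild type replicate 2 (adjusted p 0.0768) and without BALB/c replicate 14 (0.0553) or 15 (0.0952), and with total counts (0.126) or the Y-linked covariate (0.0592). The Erf value in mutants was 0.01 (SE 0.159, adjusted p 0.969), and it was 0.28 (adjusted p 0.0366) without C57BL/6 replicate 4.

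The Efnb1 strain value was 0.29 in wild type, where it passed (SE 0.106, adjusted p 0.0408, edgeR), and -0.25 in mutants, where it did not (SE 0.105, adjusted p 0.0786). The mutant value passed with DESeq2 (-0.26, adjusted p 0.0410) and in the fit of mutant samples alone (-0.24, adjusted p 0.0162). The wild type call was lost without C57BL/6 replicate 1 (log2 0.15, adjusted p 0.0716) and without BALB/c replicate 13 (0.0890), 14 (0.0667) or 15 (0.0953). It was also lost with RLE size factors (0.0521), total counts (0.0691) and the fit of wild type samples alone (0.0727). Alx4 had values of 0.07 and -0.20 (adjusted p 0.562 and 0.142), and Efna4 of 0.16 and 0.36 (adjusted p 0.415 and 0.0995). Without C57BL/6 mutant replicate 4 the Efna4 value in mutants was 0.53 (adjusted p 0.021).

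**Figure D5:**
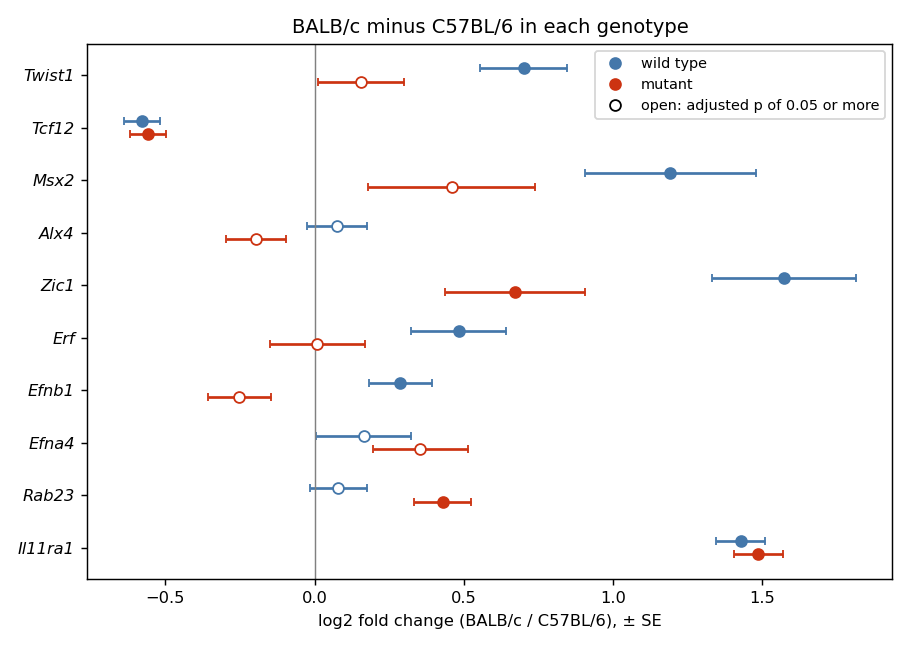
Log2 fold change of BALB/c over C57BL/6 in each genotype, with SE, from the fit of all 12 samples (filled, adjusted p under 0.05). Il11ra1 (1.43 and 1.49) and Tcf12 (-0.58 and -0.56) have like values in both genotypes. Zic1 (1.57 and 0.67) has a lower value in mutants, a difference that did not pass the interaction test (adjusted p 0.1, edgeR).

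Genes that work with the members were taken from lists of 83 genes, of which 82 were in the table and 77 passed the filter. By genotype 32 of the 77 were called in C57BL/6, 18 higher and 14 lower in mutants, where 23.9% of all genes were called. In BALB/c edgeR called 0 of the 77, against 0.136% of all genes, and 15 had an unadjusted p under 0.05. In BALB/c DESeq2 called 7 of them and 323 of all genes, and limma-voom 0 of them and 44 of all genes. The fit of the C57BL/6 samples alone called 16.

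Among 7 tested partners and inhibitors of Twist1 and Tcf12, Id1 and Id3 rose and Id4 fell in C57BL/6 mutants, against 23.9% of all genes called. Id proteins bind E proteins such as Tcf12 and keep them off DNA. Id1 went from 53.3 CPM ± 2.23 to 89.3 CPM ± 6.35 (SD, n = 3; log2 0.75, SE 0.148, adjusted p 0.00544, edgeR). Id3 went from 188 ± 23.3 to 278 ± 7.95 CPM (log2 0.56, adjusted p 0.00509) and Id4 from 24.2 ± 7.52 to 9.12 ± 4.12 CPM (log2 -1.40, adjusted p 0.00682). Between wild type strains 5 of the 7 differed, against 48.5% of all genes. Twist2, the close relative of Twist1, was higher in BALB/c (log2 1.13, adjusted p 0.00913), and the E protein gene Tcf4 was lower (log2 -0.53, adjusted p 7.59e-05), as Tcf12 was. The third E protein gene, Tcf3, was higher in BALB/c in wild type (log2 0.22, adjusted p 0.0163) and in mutants (log2 0.33, adjusted p 0.00243).

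Of 6 tested paralogues of the homeobox and zinc finger members, 0 were called by genotype in C57BL/6 with edgeR, against 23.9% of all genes, and 1 had an unadjusted p under 0.05. In wild type 4 were higher in BALB/c, against 22.8% of all genes, namely Zic4, Zic2 (log2 1.38, SE 0.330, adjusted p 0.00497, edgeR), Msx1 (log2 1.21, SE 0.135, adjusted p 4.13e-05) and Alx1 (log2 0.31, SE 0.0942, adjusted p 0.0162). Msx1, which overlaps Msx2 in function in the skull, averaged 19.2 CPM in BALB/c and 8.28 CPM in C57BL/6 wild type (SD 3.87 and 0.247, n = 3) and was also called in mutants (log2 0.93, adjusted p 0.000258), as 1 of the 6 against 36.9% of all genes. The median log2 value of the 6 was 0.80 in wild type.

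Of 18 ephrins and Eph receptors, 6 were called by genotype in C57BL/6, 2 higher and 4 lower, against 23.9% of all genes. Efna3 (log2 -1.34, adjusted p 0.00604), Ephb1 (-1.08, adjusted p 0.00625), Epha7 (-0.64, adjusted p 0.0234) and Ephb3 (-0.46, adjusted p 0.00142) fell in the mutants. Markers of brain neurons and glia (5) summed to 54.2 to 120 CPM in C57BL/6 wild type and 2.69 to 35.1 CPM in the mutants, and those of olfactory neurons (5) to 213 to 314 and 133 to 202 CPM, and their part in these differences was not tested. Between the wild type strains 9 of the 18 differed, against 48.5% of all genes. Efnb3 (0.82, adjusted p 4.56e-05), Efna2 (0.51, adjusted p 0.00812), Ephb3 (0.33, adjusted p 0.00252) and Ephb4 (0.32, adjusted p 0.000329) were higher in BALB/c, and 5 were lower. Of these, Efna3, Ephb1 and Epha1 were lower in BALB/c than in C57BL/6 wild type (-1.42, -0.83 and -1.28, adjusted p 0.00146, 0.00905 and 0.000311). Epha3 was lower in BALB/c in both genotypes, at 32.0 against 15.8 CPM in wild type and 26.4 against 11.3 CPM in mutants (log2 -1.02 and -1.23, adjusted p 5.98e-05 and 1.86e-05, edgeR).

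In the interleukin 11 pathway 5 genes were tested, of which 3 were called by genotype in C57BL/6, 2 by strain in wild type and 5 by strain in mutants, against 23.9%, 48.5% and 36.9% of all genes. Stat3 (log2 0.42, adjusted p 0.00521), Il6st (0.25, adjusted p 0.0273) and Jak1 (0.22, adjusted p 0.0309), which carry the signal from the receptor, rose in C57BL/6 mutants, where Il11ra1 fell. Il6st, the gene of gp130, was lower in BALB/c in wild type (log2 -0.55, adjusted p 0.000124) and in mutants (-0.49, adjusted p 0.000301), and Socs3, the feedback inhibitor, was higher in both (0.61 and 0.52, adjusted p 0.00388 and 0.0121). The ligand Il11 was low, at 0.129 to 1.19 CPM.

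Of 9 tested partners of Rab23 in cilia and Hedgehog signalling 3 were called by genotype in C57BL/6, a share near the 23.9% of all genes. Gli3 (log2 0.45, adjusted p 0.00260) and Intu (0.38, adjusted p 0.0178) rose and Tulp3 (-0.41, adjusted p 0.00890) fell in C57BL/6 mutants. Gli3, whose loss causes synostosis of the metopic suture, was lower in BALB/c in both genotypes (-0.73 and -0.86, adjusted p 3.50e-05 and 1.09e-05, edgeR). Among 5 ETS factors related to Erf, 1 was called by genotype in C57BL/6, against 23.9% of all genes, and it was Elk3 (log2 0.24, adjusted p 0.0283).

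Of 28 tested other human craniosynostosis genes, which include Gli3 again, 17 were called by genotype in C57BL/6, 9 higher and 8 lower, against 11.3% and 12.6% of all genes, with a median log2 value of 0.01. Ihh, the Hedgehog ligand of growing cartilage, fell from 12.7 CPM ± 3.21 to 3.48 CPM ± 0.848 (SD, n = 3; log2 -1.87, adjusted p 0.000463, edgeR), and chondrocyte markers summed to 252 to 2550 CPM in these mutants. Lrp5, a Wnt co-receptor, and Runx2, the osteoblast master regulator (0.65, adjusted p 0.00160), rose, Lrp5 by 0.70 (adjusted p 0.000817), and Esco2, a cohesin acetyltransferase, fell (-0.71, adjusted p 0.00521). Ptch1, the Hedgehog receptor, was lower in BALB/c in both genotypes, with wild type means of 77.3 CPM for C57BL/6 and 23.4 CPM for BALB/c (SD 12 and 3.62, n = 3; log2 -1.72, SE 0.147, adjusted p 7.78e-06, edgeR). Chondrocyte markers (5), a tissue with strong Hedgehog signalling, summed to 4510 to 6620 CPM in C57BL/6 wild type and 573 to 1670 CPM in BALB/c wild type. In mutants they ran from 252 to 2550 CPM in C57BL/6 and from 981 to 4790 CPM in BALB/c, with a median log2 strain value of 0.92. Their part in the Ihh and Ptch1 differences was not tested. Ihh was lower in BALB/c wild type by a like amount (log2 -1.71, SE 0.229, adjusted p 0.000141). In mutants Ptch1 was 70.1 ± 4.22 against 33.7 ± 5.85 CPM (log2 -1.06, adjusted p 0.000168).

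Predicted genes and microRNAs were skipped in the search for genes like a member. The genes whose profiles over the 12 samples were most like a member were found by the root mean square difference of centred log2 CPM. For Twist1 they were Bambi (0.0787) and Pcolce (0.0810), against an SD of 0.348 for Twist1 itself. For Tcf12 they were Nipbl (0.0493) and Arid2 (0.0514), for Efnb1 Gpr153 (0.0609) and Adamts2 (0.0618), and for Zic1 Foxd1 (0.227) and Lrrn4cl (0.230). For Rab23 they were Lynx1 (0.0966) and Ftsj2 (0.105), and for Erf Dbr1 (0.141) and Eif1b (0.155), against SDs of 0.229 and 0.262. For Il11ra1 they were Ppia (0.183) and Mfap4 (0.188), and for Msx2 Wnt9a (0.240) and Hrc (0.242).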

How the data were processed

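The authors deposited raw gene counts for 12 samples, with an RPKM value per gene and sample and a coding length, per the file headers, and a second table that holds, for each of 4 comparisons, a log2 fold change with its p-value and q-value. The submitters' processing notes name bcl2fastq, TopHat2 2.0.6, HTSeq, DESeq2 and build mm10. The strand setting and annotation are not given in the sources used here. RPKM values were not used in tests, because their library totals exceed the gene counts. Of the value columns, 0 belonged to no sample.

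Counts were analysed with edgeR 4.0.16 in R 4.3.3: filterByExpr (minimum count 10, minimum total count 15), TMM scaling and 1 quasi-likelihood model over the 4 groups, giving 5 comparisons with Benjamini-Hochberg adjustment over 16190 genes and a threshold of 0.05. The SE is the one implied by the F statistic. The procedure was tested on simulated counts with 1 fixed spread for all genes and no outlying library. That test does not cover libraries that stand apart. Log2 CPM used a prior count of 2. The members, gene lists and tests were chosen with earlier results of these data known. Up to 4 genes per list and comparison were named, by size of change among called genes with a mean of at least 1 CPM and separate groups, and further genes were named after their values were seen. For members called in any comparison, the 2 most alike genes were found, with predicted genes and microRNAs skipped. Overlaps and 50-base words came from GENCODE M21 (GRCm38). Alternatives were DESeq2 1.42.0, limma-voom (limma 3.58.1), RLE factors, total counts, no filter, halved counts, a Y-linked covariate, the compared groups alone and leaving out each replicate. Replicate pairs had a chi-square of 5.05 to 38 per gene, computed on halved counts. Sampling noise gives about 1 on that scale if each read was counted 2 times.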

Additional observations from a re-analysis of the deposited data

Results flagged for a closer look

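The genotype effect differed between the strains by the interaction test (edgeR, adjusted p under 0.05) for Efnb1, at -0.54 on the log2 scale (adjusted p 0.0426). Of the 77 related genes 12 passed the same test, against 10% of all genes. That count was 24 without C57BL/6 mutant replicate 4, 6 without replicate 5 and 5 without replicate 6. It was 5 without BALB/c wild type replicate 14, 7 without BALB/c mutant replicate 16, and 6 without replicate 17 or 18. The counts over all genes moved the same way, from 1626 to 3129 without C57BL/6 mutant replicate 4, 877 without replicate 5 and 624 without replicate 6, and to between 751 and 905 without each of those BALB/c samples. The genes that the naming rule picks were Id4 (1.61, adjusted p 0.0345), Id3 (-0.63, adjusted p 0.0292), Epha2 (-0.47, adjusted p 0.0402), Ihh (1.64, adjusted p 0.0120), Esco2 (0.98, adjusted p 0.0131), Fbn1 (0.92, adjusted p 0.0160) and Phex (-0.78, adjusted p 0.0345). For each of these genes the absolute genotype value was larger in C57BL/6 than in BALB/c, where it did not pass for any of them.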

How the results depend on the processing

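Of 750 recomputed values for the 10 members in 5 comparisons, 684 kept their direction and side of the threshold, 33 lost a call, 16 gained one and 17 changed sign. No member called with edgeR in the main analysis changed sign under any alternative in a comparison where it was called. In BALB/c by genotype DESeq2 and limma-voom each called 1 member, and fits without 1 replicate called 0 to 1. The fit of the compared groups alone called 1 member by genotype in C57BL/6. In the interaction DESeq2 called 3 members, the fit with no filter 0, and fits without 1 replicate 0 to 2. With total counts the interaction call went from Efnb1 to Rab23 (0.583, adjusted p 0.0356). With total counts the sign turned for Alx4 by genotype in C57BL/6 (-0.011) and by strain in wild type (-0.028), Efnb1 by genotype in BALB/c (0.017), Rab23 by strain in wild type (-0.036) and Tcf12 by genotype in C57BL/6 (-0.082). Erf by strain in mutants was -0.002 with DESeq2 and with RLE factors. Without 1 replicate the ranges that crossed 0 were -0.037 to 0.155 for Alx4 by strain in wild type, -0.046 to 0.012 for Efnb1 by genotype in BALB/c, -0.044 to 0.357 for Erf by genotype in C57BL/6, -0.121 to 0.281 for Erf by strain in mutants, -0.007 to 0.15 for the Il11ra1 interaction and -0.016 to 0.083 for the Tcf12 interaction. The cause was not tested. Total counts moved the median of all genes by genotype in C57BL/6 to -0.201 and in the interaction to 0.238. Of the related genes, DESeq2 called 22 and the fit with the Y-linked covariate 7 in the interaction, against 12. By genotype, DESeq2 called 7 and the fit of the compared groups 1 in BALB/c, against 0, and the latter called 16 in C57BL/6, against 32. Msx2 and Efna4 had low counts, 104 to 492 and 184 to 308 per library, and the part of depth in their values was not tested. No paired analysis was done, because the groups share no replicate numbers and the sample labels used here hold no litter.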
